A study of Homo sapiens with 2 samples.

Results

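The chromosome 9 segment chr9:4950000-5600000 (hg19, band 9p24.1) was examined for binding of GRHL2 and MLL3 around JAK2, CD274 and PDCD1LG2. A region belonged to it when its summit, the position of highest signal, fell inside those bounds. This held for 97 of the 152864 GRHL2 regions and 218 of the 12150 MLL3 regions that the authors listed on chromosomes 1 to 22, X and Y. The segment was selected on the coverage of these same lists, which rises sharply inside it, so the rise and the counts are given as a description. The libraries were chromatin immunoprecipitations with sequencing (ChIP-seq) from KYSE510 cells, an established line of human esophageal squamous cell carcinoma, fixed with formalin and with no treatment stated. One antibody, against MLL3 or GRHL2, was used per library, regions were called against input chromatin, and there was 1 library per antibody. No value therefore carries an error between replicates and no test between conditions was possible. Cells with either factor silenced, which the design also mentions, were not analysed here.

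CD274 encodes PD-L1 and PDCD1LG2 encodes PD-L2, the ligands of the receptor PD-1 on T cells, through which tumour cells can dampen T cell attack. JAK2 is a kinase that passes on signals from cytokine receptors, among them the interferon gamma receptor, and interferon gamma is a strong inducer of CD274. GRHL2, of the Grainyhead family, is a transcription factor that epithelial cells use to keep their identity, and MLL3 (KMT2C) is a methyltransferase that marks histone H3 at enhancers. The genes lie close together on the short arm of chromosome 9, and they are known to be gained together in some lymphomas. All 3 are read in the same direction, from JAK2 (4985 to 5128 kb) through CD274 (5450 to 5471 kb) to PDCD1LG2 (5510 to 5571 kb). These bounds are good to about 1 kb, and so are all distances to gene starts given here. In the order of RefSeq genes (GRCh38.p14), the protein-coding genes INSL6, INSL4, RLN2, RLN1 and PLGRKT lie between JAK2 and CD274, none lies between CD274 and PDCD1LG2, and RIC1 follows PDCD1LG2.

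The strongest GRHL2 summit of the segment fell within 1 kb of the CD274 start, so the sequence just before that start is shown. It is the 250 bases upstream of the RefSeq start of CD274 (GRCh38.p14, plus strand, 5′ to 3′). The capitals mark CpG dinucleotides, the sites of DNA methylation, which crowd towards the start.
CD274 upstream sequence: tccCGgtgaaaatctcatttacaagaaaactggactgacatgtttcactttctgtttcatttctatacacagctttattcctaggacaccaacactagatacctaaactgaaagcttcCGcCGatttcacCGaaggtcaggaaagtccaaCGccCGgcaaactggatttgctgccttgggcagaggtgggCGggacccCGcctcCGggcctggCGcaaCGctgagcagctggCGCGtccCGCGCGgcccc
The GC content of the printed bases was 54.8%, against a median of 58% over the same 250 bases of all promoters, with 39.2% in the distal 125 bases and 70.4% in the proximal 125. They held 16 CpG dinucleotides, 13 of them in the proximal 125 bases, against a median of 11 over all promoters. Neither the Grainyhead palindrome AACCGGTT nor its looser form AACNNGTT, which includes the palindrome, occurred in the CD274 promoter or in the 4 RefSeq promoters of JAK2, searched on both strands. Of all 35116 RefSeq promoters of 300 bases (250 before the start and 50 after it), 0.134% held AACCGGTT and 3.52% held AACNNGTT. TGANTCA, which covers the AP-1 site, was also without a match in these 5 promoters and occurred in 7.71% of all. These letters were searched only in those windows, and the GRHL2 region at CD274 is far wider than the window printed. For PDCD1LG2 no promoter sequence was used.

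The depth behind the lists was read from the deposited values themselves. In MACS2 the fold enrichment of a region is the pileup of fragments at the summit plus 1 over the local background plus 1, and the p-value is the Poisson tail of that pileup. Solving both for a whole-number pileup returned the deposited −log10 p within 0.001 for all 152864 GRHL2 and all 12150 MLL3 regions. The lowest background, which was also the commonest, was 1.50 fragments for GRHL2 and 1.26 for MLL3, with values within 0.005 fragments counted as equal. Taking the shortest listed width (265 bp for GRHL2 and 195 bp for MLL3) as the fragment length, which is the default floor of MACS2, these backgrounds correspond to 5667 and 6445 fragments per Mb of genome. Summit pileups had a median of 6 fragments over the whole GRHL2 list and 17 over the whole MLL3 list. The lists end at different thresholds, a −log10 q of 2.07 for MLL3 and a −log10 p of 1.30 for GRHL2, so folds are ranked within a list only.

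JAK2 carried no region of either factor. Its body of 143 kb was covered to 0% by both lists, and so were the 35 kb between the left end of the segment and the JAK2 start. The nearest GRHL2 region before the start ended 51.0 kb away, with a fold of 2.80 and a −log10 q of 0.757, and the next one after it began 200.8 kb downstream, past the end of the gene. Together they bounded 251.8 kb without a GRHL2 region. For MLL3 the empty stretch was 603.1 kb, from 378.7 kb before the JAK2 start to 224.4 kb after it. When the genome was cut into 20892 tiles of 143 kb, 16.7% held no GRHL2 region and 70.1% held no MLL3 region, gaps of the assembly included. The median tile held 4 GRHL2 regions and 0 MLL3 regions.

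Coverage by both lists rose between JAK2 and CD274, at the same place. In bins of 10 kb, the largest difference between the 100 kb before and after a bin boundary was at 5210000 for each factor, 82 kb past the end of JAK2 and 240 kb before the CD274 start. GRHL2 coverage went from 1.45% of bases in the 100 kb before to 88.8% in the 100 kb after. MLL3 coverage went from 0.457% to 20.8%. The first GRHL2 region of the dense stretch began at 5209173 (chr9:5209173-5213225, fold 5.996) and the first MLL3 region at 5209429 (chr9:5209429-5209885, fold 4.76), 256 bp apart. Before this edge a single GRHL2 region stood in the segment, chr9:5185783-5186399, with a fold of 2.80, a pileup of 6 fragments and a −log10 q of 0.757. Of the 26 bins left of the boundary, 24 held no GRHL2 base and 25 no MLL3 base. All 39 bins to the right held both, with a GRHL2 coverage of 73.0% to 100% (median 94.0%) and an MLL3 coverage of 3.53% to 64.3% (median 28.6%). For MLL3 the place of the largest rise depended on the setting. With bins of 50 kb, 2 on each side, it was at 5800000, and with regions of a −log10 q of at least 5 it was at 5810000, both inside the dense stretch and right of the segment.

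**Figure D1:**
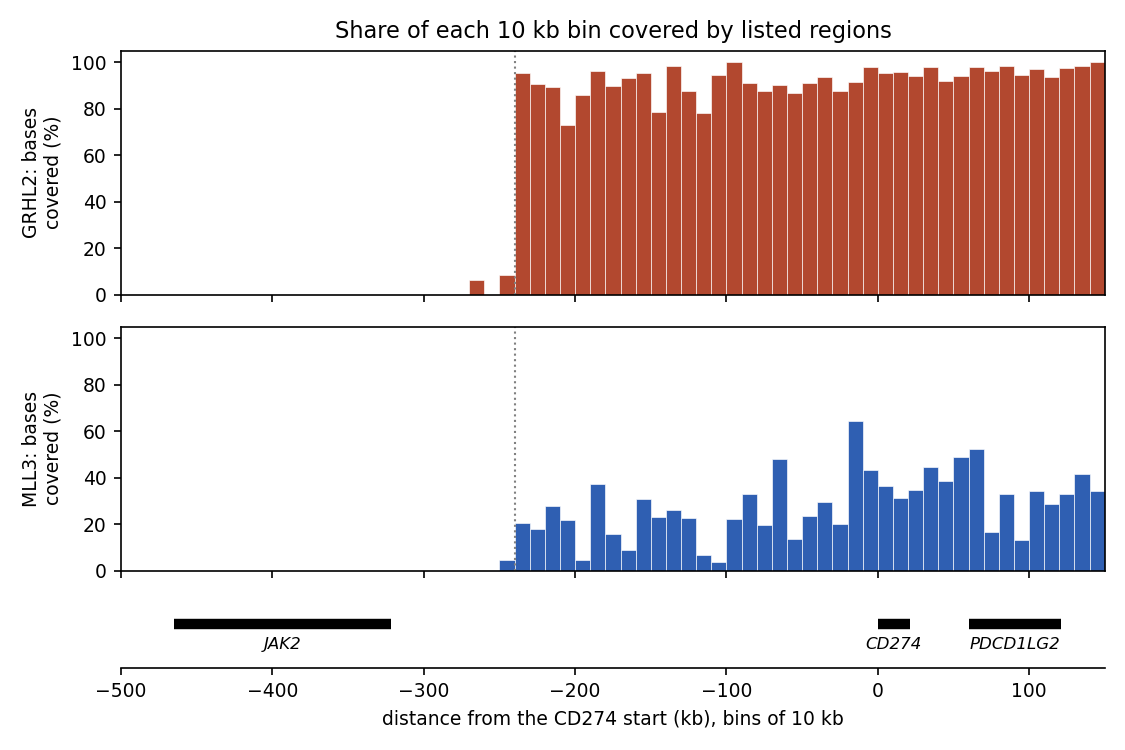
Share of bases covered by listed GRHL2 (top) and MLL3 (middle) regions in bins of 10 kb, against the distance from the CD274 start in kb, with the gene bodies drawn below and the boundary at 5210000 as a dotted line. JAK2 lies over empty bins, and every bin right of the boundary is covered to at least 73.0% by GRHL2 and 3.53% by MLL3.

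The background that the folds were computed against was, at the median, no higher in the dense stretch than in the whole list. Of the 96 GRHL2 summits right of the boundary, 62 (64.6%) had the lowest background of the list within 0.005 fragments, against 42.3% of the whole list. The median there was 1.50 fragments and the highest 2.90, or 1.93 times the lowest, while the median of the whole list was 1.65. Of the 217 MLL3 summits right of the boundary, 98 (45.2%) had the lowest background within the same tolerance, against 22.3% of the whole list, and 8 had more than 2 times that value. Their median background was 1.31 fragments against 1.64 for the whole list. This background is the larger of a genome-wide average and the local input after scaling, so values of the input below that average are not visible in it.

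**Figure D2:**
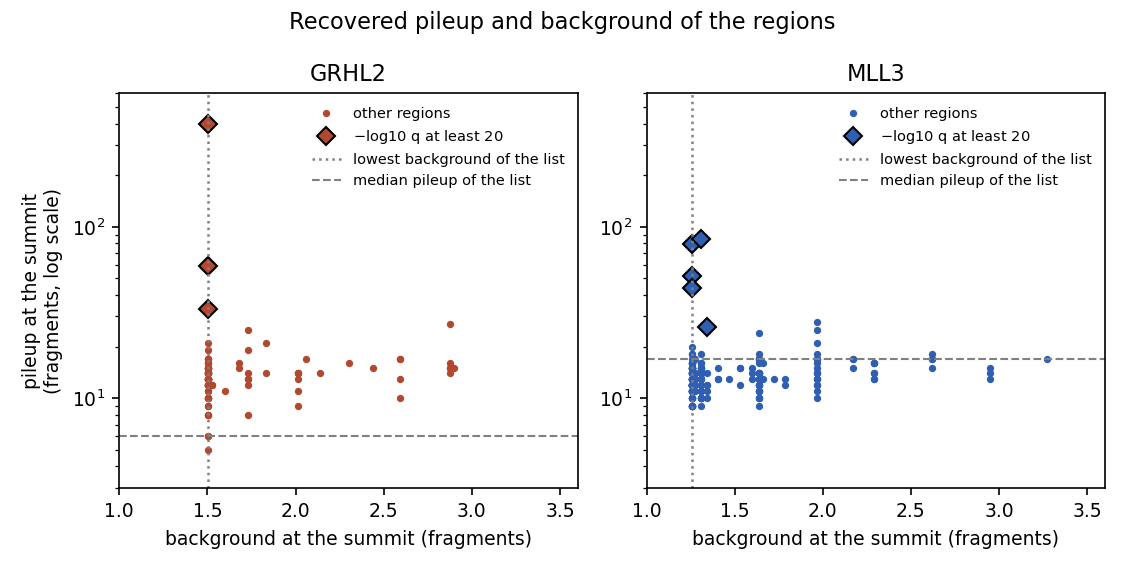
Pileup of fragments at the summit (log axis) against the background at the summit for each GRHL2 (left) and MLL3 (right) region of the segment, with the lowest background of the whole list dotted and its median pileup dashed. Most GRHL2 points lie above the median pileup of 6, most MLL3 points below that of 17, and strong regions sit at or close to the lowest background.

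GRHL2 regions in the dense stretch were wide, evenly enriched and almost end to end. The 97 regions of the segment had a median fold of 5.20 (quartiles 4.64 and 5.996, range 2.40 to 159) against 2.77 in the whole list, and a median width of 3015 bp against 361 bp. Of the 97, 91 had a −log10 q of at least 2 (93.8%, exact Clopper-Pearson 95% interval 87.0 to 97.7%), against 19.7% of the whole list. The gap from one GRHL2 region to the next had a median of 209 bp, 58 of the 95 gaps right of the edge were under 250 bp, and the longest was 1625 bp. Gaps over the whole list are not given here for comparison. The widest was chr9:5582492-5602783, with 20292 bp the third widest of the whole list, at a fold of only 7.77, and it held 16 MLL3 regions. The MLL3 regions were many but modest. Their median fold of 5.76 (range 3.55 to 37.2) lay below the 6.49 of the whole list, with a median pileup of 13 fragments against 17 and a median width of 387 bp against 375 bp.

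A few strong sites stood out of this even layer. Strong regions, those with a −log10 q of at least 20 in their own list, numbered 3 of 97 for GRHL2 (3.09%) against 3.98% of the whole list, a share near the background. They numbered 5 of 218 for MLL3 (2.29%, 95% interval 0.749 to 5.27%) against 19.4% of the whole list. Just outside that limit lay a GRHL2 region at a −log10 q of 18.1 and an MLL3 region at 19.5, and just inside it regions at 29.9 and 21.3. None of the strong regions was left of the boundary, where only 1 region of each factor was listed, so little can be read from their absence.

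**Figure D3:**
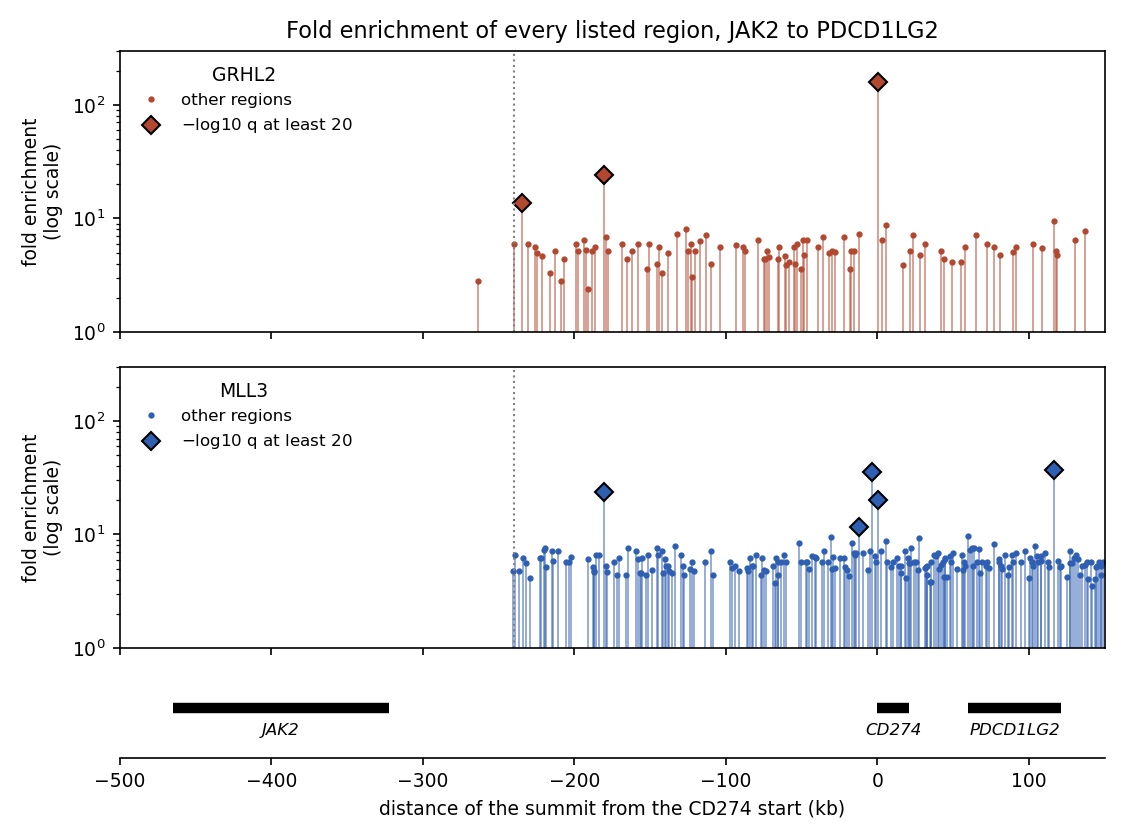
Fold enrichment (log axis) of each GRHL2 (top) and MLL3 (middle) region at its summit, against the distance from the CD274 start in kb, with strong regions as diamonds and gene bodies below. GRHL2 has 1 summit far above the rest, at the CD274 start (fold 159), and the highest MLL3 summits lie in the distal part of PDCD1LG2 (37.2) and just upstream of CD274 (35.4).

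The strongest GRHL2 site covered the CD274 start. This region, chr9:5444968-5452745, reached a fold of 159, the 8th highest of the 152864 in the GRHL2 list, and a −log10 q of 785. Its summit at 5450447 was within 1 kb of the CD274 start and held a pileup of 396 fragments (exact Poisson 95% interval 358 to 437, counting error only) over a background of 1.50. The next highest GRHL2 pileup of the segment was 59 fragments, so the CD274 summit was 6.71 times higher. The region was 7778 bp wide and began about 5 kb before the gene. Among the 100 GRHL2 regions of highest fold none was wider, and their median width was 2639 bp. Its width was not particular to its strength, since weak regions beside it were wide too. Of these, chr9:5435029-5444785 (fold 7.22) had 9757 bp and chr9:5454513-5466223 (fold 8.79) had 11711 bp, while chr9:5453020-5454346 had 1327 bp. The other GRHL2 summits inside the CD274 body were far lower. Regions chr9:5453020-5454346, chr9:5454513-5466223 and chr9:5466459-5469480 had folds of 6.40, 8.79 and 3.87, with pileups of 15, 21 and 14 fragments. GRHL2 regions together covered 95.9% of the gene body, near the 92.5% of all bases right of the boundary.

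MLL3 had a pair of strong summits over the same GRHL2 region. The higher one, chr9:5446362-5447729, was 3 kb upstream of the CD274 start, with a fold of 35.4 (rank 50 of 12150) and a pileup of 79 fragments (95% interval 62.5 to 98.5). The lower one, chr9:5449531-5451777, covered the start, with a fold of 19.9 (rank 398) and a pileup of 44 fragments (95% interval 32.0 to 59.1). Its summit was 8 bp from the GRHL2 summit, whereas the higher MLL3 summit was 3753 bp from it. The intervals of the pair do not overlap, so at the depth of this library the upstream summit was the higher, in 1 library and without a replicate. At 2247 bp the region over the start was the 10th widest of the MLL3 list. The other 4 MLL3 regions on this GRHL2 region had folds of 5.69 to 7.09 and pileups of 14 or 15 fragments. A further strong MLL3 region, chr9:5437250-5439839, lay 12 kb upstream of the start, with a fold of 11.5 and a pileup of 26 fragments, and was with 2590 bp the fifth widest of the MLL3 list. Its summit was 167 bp from a GRHL2 summit of fold 7.22. The place of this region relative to PLGRKT and the other genes between JAK2 and CD274 was not examined. Inside the CD274 body 14 MLL3 summits were listed, and 34.5% of its bases were covered, against 28.4% right of the boundary.

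**Figure D4:**
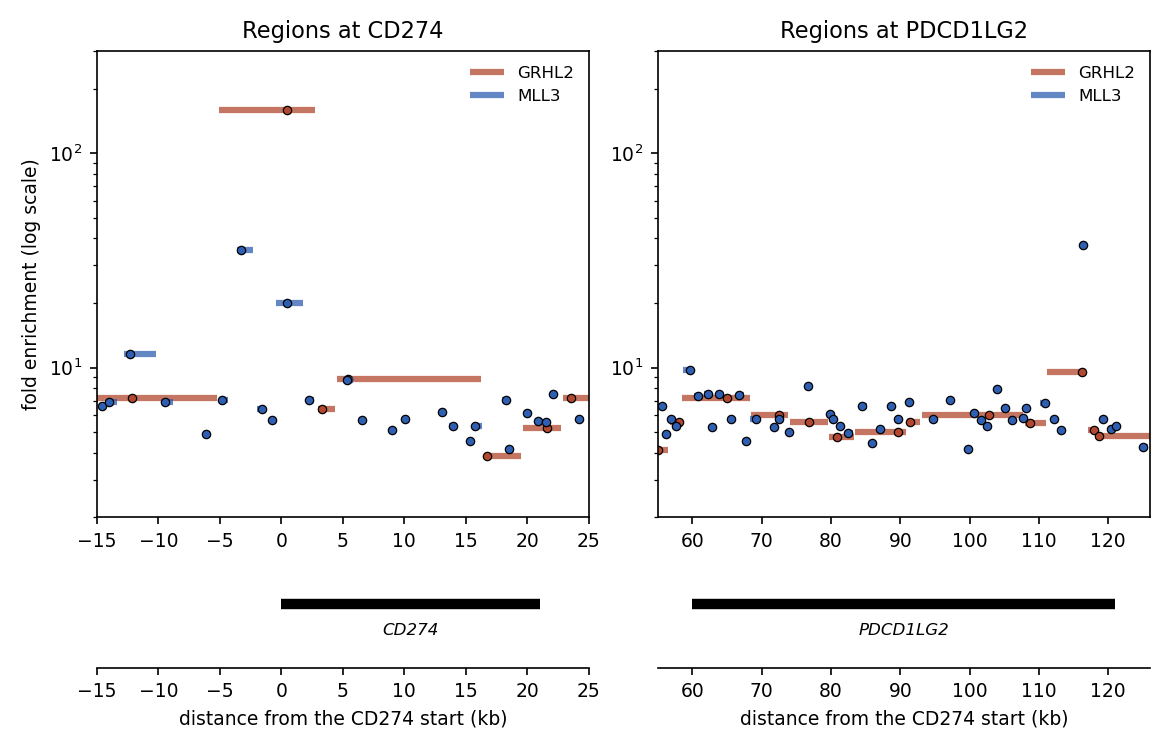
Listed GRHL2 and MLL3 regions around CD274 (left) and PDCD1LG2 (right), as bars from start to end at the height of their fold (log axis) with the summit as a point, against the distance from the CD274 start in kb. At the CD274 start a GRHL2 bar of fold 159 spans MLL3 summits of fold 35.4 and 19.9, and at PDCD1LG2 a single MLL3 summit of fold 37.2 near the end of the gene stands above regions of fold 9.78 or less.

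At the PDCD1LG2 start both factors were listed, GRHL2 without a summit within 1 kb and MLL3 with a summit just before it. The GRHL2 region chr9:5508504-5518305 overlapped the start with a fold of 7.19 and a pileup of 17 fragments (95% interval 9.90 to 27.2), and its summit was 5 kb inside the gene. The nearest GRHL2 summit to the start, 2 kb before it, had a fold of 5.60 and a pileup of 13. MLL3 had a region just before the start, chr9:5508630-5509939, with a fold of 9.78 and a pileup of 28 fragments (95% interval 18.6 to 40.5), the highest fold of the segment among those that were not strong. A second region, chr9:5510161-5510882, lay over the first kb of the gene with a fold of 7.36 and a pileup of 16. The interval of the MLL3 summit just before PDCD1LG2 lay above the median MLL3 pileup of the segment, 13 fragments. It overlapped that of the MLL3 summit at the CD274 start, which does not show that the summits are equal. Their folds were 9.78 and 19.9, over backgrounds of 1.96 and 1.26 fragments. The median MLL3 background of the segment was 1.31 fragments, so the summit just before PDCD1LG2 exceeded the median in background as well as in pileup.

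The highest MLL3 summit of the segment was inside PDCD1LG2. This region, chr9:5565980-5566669, lay 56 kb after the start and 4.70 kb before the end of the gene, with a fold of 37.2 (rank 37 of 12150) and a pileup of 85 fragments (95% interval 67.9 to 105.1). That interval overlaps the one of the summit 3 kb upstream of CD274, so their order is not resolved at this depth. The region was narrow, 690 bp, and its summit was 46 bp from that of a GRHL2 region, chr9:5561141-5566790, whose fold was 9.53 with a pileup of 25 fragments. That fold was the highest of the 11 GRHL2 summits in PDCD1LG2. All 11 had a −log10 q of at least 2, against 94.8% of all GRHL2 regions right of the boundary. The gene body was covered to 96.4% by GRHL2 and 29.7% by MLL3, which had 39 summits there. These coverages were near those of the whole stretch right of the boundary, 92.5% and 28.4%. Between the genes, over 39 kb, 9 GRHL2 and 32 MLL3 summits were listed, with folds up to 7.19 and 9.78, the latter in the region just before PDCD1LG2.

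Between the boundary and CD274 lay the other strong sites. The region chr9:5265247-5270312 had the second highest GRHL2 fold of the segment, 24.0, with a pileup of 59 fragments (95% interval 44.9 to 76.1), 180 kb upstream of CD274. On it lay the strong MLL3 region chr9:5268140-5269813, with a fold of 23.5 and a pileup of 52 (95% interval 38.8 to 68.2). Their summits were 279 bp apart. The remaining strong GRHL2 region, chr9:5213480-5217338, was 234 kb upstream of CD274 and the second region of the dense stretch. Its fold was 13.6 with a pileup of 33 fragments (95% interval 22.7 to 46.3), and the highest MLL3 fold on it was 6.20. The whole 240 kb from the boundary to the CD274 start held 70 GRHL2 and 110 MLL3 summits.

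MLL3 regions almost all lay on GRHL2 regions, but few had a GRHL2 summit within 100 bp. Of the 218 MLL3 regions, 217 overlapped a GRHL2 region (99.5%, 95% interval 97.5 to 99.99%) against 85.0% of the whole list, where GRHL2 regions cover 2.40% of the genome and not the 92.5% they cover right of the boundary. The exception was chr9:5227194-5227394, with a fold of 6.20. A GRHL2 summit within 100 bp was found for 11 of the 218 (5.05%, 95% interval 2.55 to 8.85%), against 41.7% of the whole list. Among the 5 strong MLL3 regions 2 had one (40%, 95% interval 5.27 to 85.3%), those over the CD274 start and in the distal part of PDCD1LG2. Of the 2358 strong regions of the whole list 66.4% had one, a share inside that wide interval. Seen from GRHL2, 76 of 97 regions overlapped an MLL3 region (78.4%, 95% interval 68.8 to 86.1%) against 6.15% of the whole list. Right of the boundary 50 of 96 carried at least 2, a count for which no share of the whole list is given here. Wide regions overlap more easily, and the GRHL2 regions here were wide. Each listed region also has 1 summit however wide it is, so 97 GRHL2 summits faced 218 MLL3 summits. The median GRHL2 width was 3015 bp here and 361 bp in the whole list. The low share of summits within 100 bp therefore cannot show that the factors bound apart, which was not tested. Intervals of these shares cover the counting of regions only, and neighbouring regions are not independent.

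The part of the segment right of the boundary differed from the stretches on either side of the segment. In the 650 kb to the left of the segment, 16 GRHL2 regions and 1 MLL3 region were listed, and GRHL2 covered 1.02% of bases. The 260 kb of the segment left of the boundary were sparse too, with 1 region of each factor and 0.556% GRHL2 coverage. To the right of the segment, from 5.6 to 8 Mb, the dense stretch went on with 51.6 GRHL2 summits per 100 kb and 74.4% of bases covered. Right of the boundary the segment had 24.6 GRHL2 summits per 100 kb and 92.5% of bases covered, so fewer and wider regions covered more of it. Median widths were 3019 bp there and 747 bp up to 8 Mb, and median pileups 14 and 8 fragments. MLL3 summits numbered 55.6 per 100 kb right of the boundary and 26.8 per 100 kb up to 8 Mb, with median folds of 5.76 and 5.70. Other MLL3 traits of the segment were also found up to 8 Mb. Right of the boundary 99.5% of MLL3 regions overlapped a GRHL2 region, and 98.3% did up to 8 Mb. A GRHL2 summit within 100 bp was found for 5.07% and 8.07%, and 5 of 217 and 13 of 644 were strong. GRHL2 regions differed more, with 79.2% and 20.3% overlapping an MLL3 region. These comparisons are within 1 library each and were not tested.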

How the data were processed

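The deposited files are 1 narrowPeak list per antibody, called by the authors against input. Per the submitters' processing notes, BWA, Picard, MACS2 and deepTools were used with hg19. Their versions and parameters were not given in the sources used here. Fold enrichment (a ratio), −log10 p, −log10 q and a score per region are the authors' deposited values. The score was not used. Of 12196 MLL3 and 153209 GRHL2 lines, only those of chromosomes 1 to 22, X and Y were used.

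The segment and the gene bounds in kb came from a rule, and members, thresholds and motifs were chosen with earlier results of these data known. Regions named were all strong ones, those at or nearest to the 3 gene starts, and the widest of each factor in the segment. The unshared MLL3 region, the GRHL2 regions in CD274 and the weak one just upstream of it were named after their values were seen. So were the region before the edge, the first GRHL2 region of the dense stretch and the GRHL2 region under the highest MLL3 summit. Overlap meant at least 1 bp. Covered length was compared over 10 bins of 10 kb on each side of every boundary from 4.5 to 6 Mb. Pileup and background were recovered with scipy 1.17.1 in Python 3.11.15, a step added after the files were seen and tested on simulated data. Gene order and promoters came from RefSeq (GRCh38.p14), none of whose coordinates were used, and JAK2 and CD274 were matched by symbol. A list of other pathway genes was not placed, for lack of hg19 positions, and 1 motif search is not reported here.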

Additional observations from a re-analysis of the deposited data

How the results depend on the processing

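Of the 24 alternatives, 3 could not change the result, since the GRHL2 list covers 0% of JAK2 before any limit and every MLL3 region has a −log10 q above 2. Of the other 21, 15 stayed within 1.5 times the reported count or coverage, within 10 kb of the reported position or within the 95% interval of the reported share. The remaining 6 were the following. GRHL2 regions of the segment numbered 64 at a fold of at least 5, against 97. The share of MLL3 regions that met a GRHL2 region, 99.5%, was 95.4% when at least 50% of the shorter region had to overlap, 5.05% for summits within 100 bp and 85.8% with GRHL2 regions of a −log10 q of at least 5. The largest MLL3 rise was at 5800000 with bins of 50 kb and at 5810000 with MLL3 regions limited to a −log10 q of 5 or more, and the cause was not tested. For GRHL2 it stayed within 10 kb of 5210000 in all 3 alternatives. No paired analysis was possible because 1 library of each antibody was analysed here. A pileup of 14 fragments, the GRHL2 median right of the boundary, has a counting interval of 7.65 to 23.5, so the order of most regions is not resolved.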
